A study of Mus musculus with 6 samples.

Results

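The medium blocks were runs of closely spaced genomic positions at which N6-methyladenosine (m6A) had been measured on RNA. Distinct listed positions of chr1 to chr19 were sorted, neighbours no more than 100 bp apart were chained into blocks, and a block was kept when it held at least 3 positions and its last position lay 200 to 999 bp after its first. The rule did not use the m6A levels, although the listing of positions was not wholly independent of m6A, as given below. The rule gave 19400 blocks, 13.9% of the 139746 blocks of any size, and these held 224000 of the 550314 listed positions on those chromosomes, or 40.7%. A medium block held a median of 10 positions (range 4 to 45), spanned a median of 328 bp, and its positions lay a median of 37.0 bp apart.

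m6A is the most common internal mark of messenger RNA. It is written on nascent transcripts by the METTL3-METTL14 complex, which takes the methyl group from S-adenosylmethionine and prefers an adenosine in a short DRACH motif. In mammalian mRNA the mark is sparse near splice junctions, where exon junction complexes keep the writer away, and dense in long internal exons, around stop codons and in 3′ untranslated regions, and the marked RNA is read by YTH-domain proteins that act on its decay and translation. Mthfd1l encodes a mitochondrial enzyme of folate-dependent one-carbon metabolism that releases formate, and this one-carbon supply feeds nucleotide synthesis and the methionine cycle that makes S-adenosylmethionine. Whether a medium block lay in 1 exon was not examined here, and no gene, motif or sequence was assigned to any block, because the genome build of the positions was not at hand.

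The cells were hepatocellular carcinoma-initiating cells (HCICs), primary cultures from livers of male mice that had been injected with diethylnitrosamine, a liver carcinogen, before weaning. MTH-D cells were CRISPR/Cas9 clones depleted of Mthfd1l, and MTH-WT cells were clones that had received the empty LentiCRISPRv2 vector, so that both groups carried the lentiviral vector and had grown from single cells. There were 3 samples per group, numbered 1 to 3, from lines of separate control and MDM2/MDMX double knock-in mice, each line giving an MTH-WT and an MTH-D clone. Which number stands for which line is not stated in the labels. In 1 of the depleted lines the gene carried only a small deletion, and the study left that line out of its own m6A comparison, so values without single samples and without the pair numbered 2 are also given for the comparison of the groups. The targeted gene could not be checked, since the data hold m6A levels and no expression. Total RNA was read directly on nanopores, with 1 flow cell per sample and all 6 samples in a single labelled batch, and the value of each position is the percentage of reads called methylated. Read depth per position is unknown, so no counting interval can be given for any value. Same-numbered samples were treated as pairs of 1 line, so that the 6 samples are not fully independent of each other.

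The mean m6A level of the 224000 positions was 10.2% in MTH-WT 1, 11.3% in MTH-WT 2 and 9.94% in MTH-WT 3, against 9.79% in MTH-D 1, 11.6% in MTH-D 2 and 9.56% in MTH-D 3. The samples numbered 2 were the highest of either group, and the groups overlapped. Most positions carried little m6A and a minority carried much of it. Positions averaging under 2% over the 6 samples made up 53.9% of the medium-block positions, while 22.2% averaged at least 10%, 7.13% (15981 positions) at least 50% and 2.82% (6318 positions) at least 80%. The levels of single positions were repeatable between samples, with Pearson's r of 0.968 to 0.980 between pairs of samples across positions, which are not independent replicates.

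Medium blocks carried more m6A per position than short blocks, which had at least 3 positions but spanned under 200 bp. Over 6 samples the mean was 10.4% in medium and 4.79% in the 209977 positions of short blocks, a difference of 5.61 percentage points ± 0.461 (SD, n = 6 samples), or 2.17-fold. The difference was 5.43, 6.11 and 5.41 points in MTH-WT 1, 2 and 3 and 5.26, 6.26 and 5.17 points in MTH-D 1, 2 and 3. It was thus positive in 6 of 6 samples, larger than the spread between them, and past the two-sided exact sign-flip permutation test at p = 0.03125, the smallest that 6 samples allow (adjusted p = 0.03125 over 4 such contrasts). That test counts each sample as a separate unit. Taken over the 3 same-numbered pairs, whose differences were 5.35, 6.19 and 5.29 points, the exact sign-flip permutation p was 0.25, the smallest that 3 pairs allow, and the call at 0.05 was lost. With 3 pairs no contrast of levels given below can reach 0.05, and each p of 0.03125 is over samples. The share of positions averaging at least 10% was 22.2% in medium and 9.73% in short blocks. Among positions that did average at least 10%, medium blocks were still higher, by 2.97 points (exact sign-flip permutation p = 0.03125).

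Listing was not wholly independent of m6A. No listed position was at 0 in all 6 samples, so positions without a single methylated call are absent and cannot take part in a block. Positions above 0 in only 1 sample made up 18.1% of short-block and 10.7% of medium-block positions, and positions above 0 in all 6 made up 30.8% and 49.0%. The part of listing and of read depth in the contrast between block lengths was not tested.

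Within the medium range, m6A was higher in the wider classes of span than in the narrowest. The 12789 blocks of 200 to under 400 bp averaged 9.72% ± 0.810 (SD, n = 6), the 4463 blocks of 400 to under 600 bp 10.9% ± 0.888, the 1534 blocks of 600 to under 800 bp 11.3% ± 0.872 and the 614 blocks of 800 to under 1000 bp 11.2% ± 0.807. The level was higher at each step over the first 3 classes. The last class lay below the third in each sample, by less than the SD between samples, and this step was not tested. Blocks of 800 bp or more exceeded those under 400 bp by 1.48 points ± 0.110 (SD over samples, range 1.29 to 1.60, 6 of 6 samples, exact sign-flip permutation p = 0.03125 over samples and 0.25 over pairs).

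**Figure D1:**
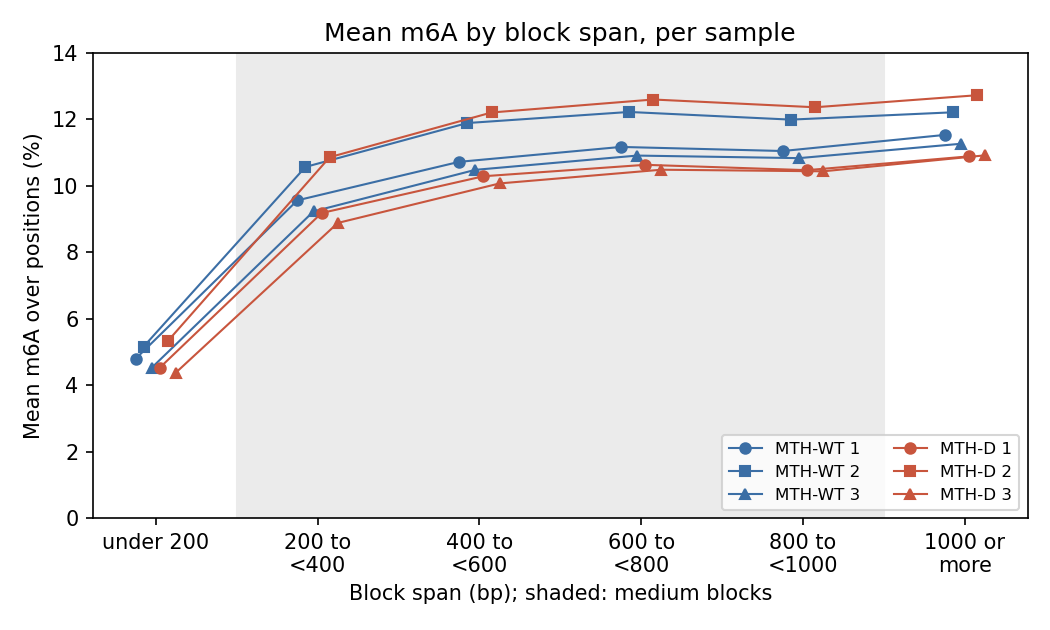
Mean m6A level (percent, y axis) of positions against class of block span (bp, x axis), for the MTH-WT and MTH-D samples. The medium classes are shaded, between short blocks and long blocks. In the mean of 6 samples, medium blocks go from 9.72% at 200 to under 400 bp to 11.2% at 800 to under 1000 bp. Short blocks stand at 4.79% and long blocks at 11.6%, and samples of both groups run side by side.

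The levels on either side of the 2 limits of the range are given without a test. Blocks within 20 bp below 200 bp averaged 8.11% ± 0.695 (2612 blocks) and blocks within 20 bp at or above it averaged 8.26% ± 0.717 (2125 blocks). At the upper limit the blocks were few, and those within 20 bp below 1000 bp averaged 13.3% ± 0.904 (41 blocks) against 10.8% ± 0.665 (42 blocks) within 20 bp at or above it. Long blocks, of 1000 bp or more, exceeded medium blocks by 1.195 points ± 0.167 in 6 of 6 samples (exact sign-flip permutation p = 0.03125 over samples and 0.25 over pairs). Among positions averaging at least 10% that difference was 0.371 points and did not pass the same test (exact permutation p = 0.25).

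The ends of medium blocks carried less m6A than their middles. The first and last listed positions averaged 8.45% over 6 samples, positions 1 to under 50 bp from the nearest end 9.01%, those 50 to under 100 bp away 10.4%, 100 to under 200 bp 11.5%, 200 to under 300 bp 12.3% and 300 to under 500 bp 12.6%. The mean was higher at each of these wide steps inward. In steps of 25 bp up to 400 bp it was higher at 11 of 15 steps and lower at 4. Positions more than 100 bp from both ends exceeded those within 50 bp of an end by 3.07 points ± 0.234 (11.8% against 8.75%, range 2.82 to 3.39, 6 of 6 samples, exact sign-flip permutation p = 0.03125 over samples and 0.25 over pairs). The mean was 8.72% and 8.75% within 50 bp of the lower and the higher coordinate. With other chaining gaps this contrast was 1.01 points (50 bp) and 5.97 points (200 bp).

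**Figure D2:**
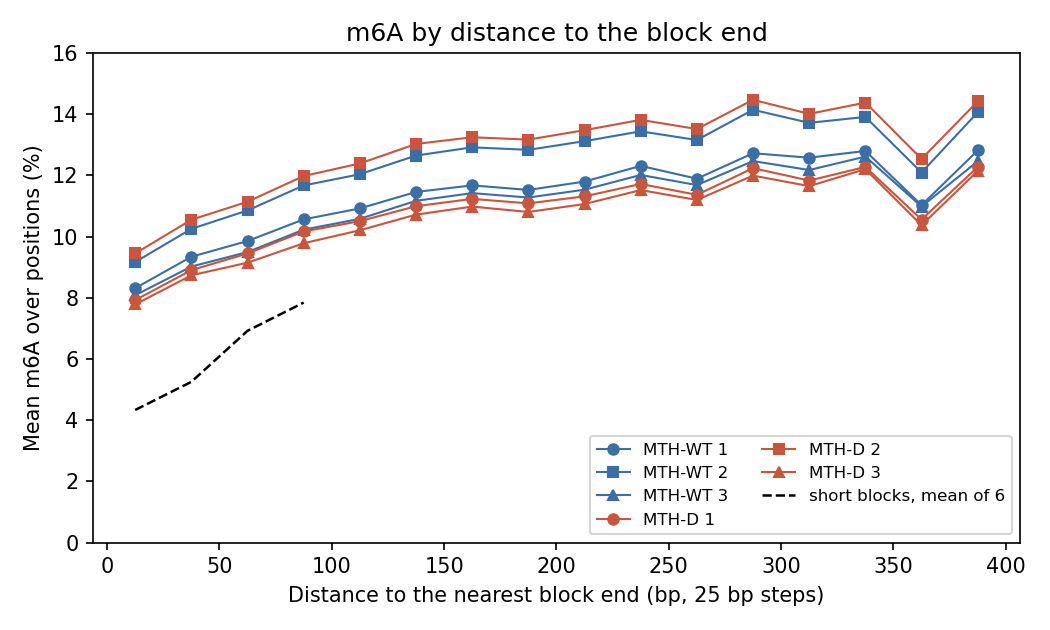
Mean m6A level (percent, y axis) against distance to the nearest block end (bp, x axis) for medium blocks, by sample, with the 6-sample mean of short blocks dashed. In the mean of 6 samples, medium blocks start at 8.45% in the first step, under 25 bp from an end. They lie between 11.3% and 13.03% in the plotted steps from 200 bp on, while short blocks start at 4.33%.

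The contrasts between block lengths were also taken at equal distance from a block end. Within 50 bp of an end, medium blocks still exceeded short ones by 4.22 points ± 0.357 (8.74% against 4.51%), in 6 of 6 samples. Long blocks exceeded medium ones by 0.422 points ± 0.180 within 50 bp of an end and by 0.437 points ± 0.207 at 100 to under 500 bp. Between the widest and narrowest medium blocks the difference was -0.122 points within 50 bp of an end (exact sign-flip permutation p = 0.1875), and 0.722 points over 100 bp from both ends (exact permutation p = 0.03125). Within 50 bp of an end the 4 span classes stood at 8.64%, 9.05%, 8.75% and 8.52% from the narrowest to the widest. These comparisons at equal distance were added after the data had been seen.

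Blocks with more listed positions also had higher levels at a similar span. Among blocks of 200 to under 400 bp, those with 4 to 6 positions averaged 8.23%, those with 7 to 9 positions 9.24%, those with 10 to 12 positions 10.5% and those with 13 to 36 positions 10.6%. These values are given without a test.

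Within a block the mark was concentrated. In 33.4% of medium blocks (6485) no position averaged 10% or more, in 3172 exactly 1 did, and in 4231 (21.8%) at least 5 did. In 36.7% (7122) at least 1 position averaged 50% or more. The median block averaged 5.30%, the tenth percentile 0.853% and the ninetieth 26.1%. Both shares differed by span. Blocks without a position at 10% made up 38.5% 25.8%, 20.9% and 14.98% of the 4 span classes in order, and blocks with a position at 50% made up 31.3%, 44.5%, 51.4% and 56.0%. Wider blocks hold more positions, and the part of that number in these shares was not tested. The same shares were 77.1% and 8.21% in short blocks and 11.6% and 65.6% in long ones.

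**Figure D3:**
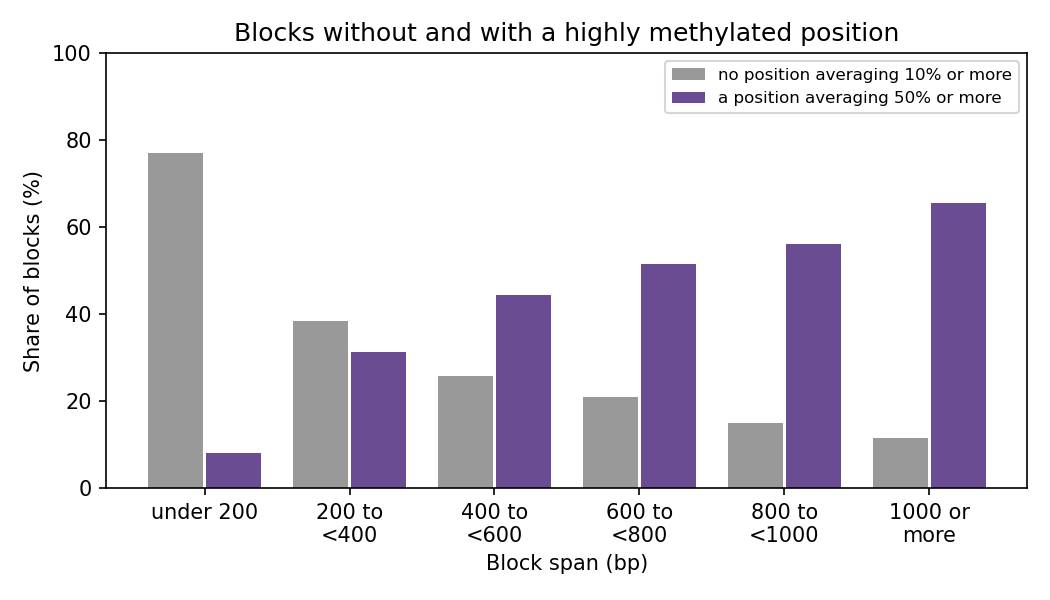
Share of blocks (percent, y axis) with no position averaging at least 10% and with a position averaging at least 50%, across block span classes. The first share goes from 38.5% to 14.98% and the second from 31.3% to 56.0% from the narrowest to the widest medium blocks.

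Among the 12915 blocks with a position at 10% or more, the single highest position held a median of 39.0% of the summed m6A of its block, from 45.1% in the narrowest to 22.6% in the widest class. It was the same position in all 6 samples in 8826 of these blocks (68.3%), and in 5161 of 7122 blocks (72.5%) whose highest position averaged at least 50%. Of the highest positions, 40.2% lay over 100 bp from both ends and 16.3% lay at an end. Of all positions of the same blocks, the shares were 43.8% and 16.1%. Each block gave a single highest position, whereas blocks with more positions weighed more among all positions. These shares therefore cannot decide whether the highest positions gathered in the middle.

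Neighbouring positions of a block were related. Between adjacent positions 1 to 5 bp apart Pearson's r was 0.309 to 0.333 in the 6 samples, at 6 to 10 bp 0.191 to 0.214, and at 51 to 100 bp 0.238 to 0.258. The correlation did not decline with distance beyond 10 bp. When 1 position averaged at least 10%, a neighbour 1 to 5 bp away did so in 47.2% of cases, against 12.52% when it did not, and at 51 to 100 bp the shares were 40.9% and 16.5%. Nearby positions share reads and depth, and these values are descriptions. Differences between block means made up 25.5% to 26.8% of the variance of positions in a sample, so that most of the variation lay within blocks. This share was not corrected for the number of positions per block, and means of few positions differ even where positions are unrelated.

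The blocks with the highest means were picked by rank among blocks with at least 5 positions, so their levels are descriptions. chr1:131107307-131107527 (coordinates in GRCm39) led with 5 positions over 220 bp. Its mean was 67.8%, 79.7% and 63.4% in MTH-WT 1, 2 and 3 and 76.5%, 78.0% and 60.4% in MTH-D 1, 2 and 3. The groups overlapped, and its 5 positions averaged between 50.9% and 95.6%. chr3:88443866-88444084 followed at 69.0% and chr9:108452586-108452819 at 66.5%. The first 10 by rank ranged from 61.8% to 71.0%, had 5 to 11 positions over 209 to 450 bp, and each held a position averaging 90.1% or more. At the level of positions, 1467 medium-block positions averaged at least 95% and 18 stood at exactly 100% in all 6 samples, such as position 21006639 of chr1 in a block of 27 positions.

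The 5 blocks with the most positions were not among the 10 with the highest means. chr10:43458615-43459555 held 45 positions over 940 bp, of which 15 averaged at least 10%, and its mean was 15.4%, 17.7% and 15.5% in MTH-WT and 16.2%, 16.2% and 16.9% in MTH-D. Its highest position averaged 99.6%. chr13:47238325-47239294, with 43 positions over 969 bp, averaged 0.882% and had none at 10%. The 5 blocks with the most positions, 41 to 45, ranged from 0.882% to 16.3%, beside 5.30% in the median medium block.

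The design asks whether loss of Mthfd1l changed m6A. Averaged over medium-block positions the level was 10.5% ± 0.706 (SD, n = 3) in MTH-WT and 10.3% ± 1.12 (n = 3) in MTH-D. The difference of -0.165 points was smaller than the spread within either group (two-sided exact permutation p = 0.7, where 3 against 3 cannot go below 0.1). By sample number the difference was -0.432, 0.317 and -0.379 points. The sign thus differed between pairs, and leaving out MTH-WT 2 (0.235 points), MTH-D 1 (0.0966 points) or MTH-D 3 (0.214 points) turned it positive, while leaving out MTH-D 2 gave -0.805 points. In the samples numbered 1 and 3 alone the difference was -0.405 points (exact permutation p = 0.333, the smallest that 2 against 2 allow). At positions averaging 10% or more the levels were 40.6% ± 2.62 and 39.8% ± 4.12, a difference of -0.763 points (exact permutation p = 0.7).

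Whether the groups differed in the contrasts by block length and by place in the block was tested too. The contrasts of medium with short blocks, long with medium, widest with narrowest and middle with end differed between MTH-D and MTH-WT by -0.0852, 0.00485, -0.0555 and -0.0477 points (exact permutation p = 0.7, 1, 0.7 and 0.7). By level, the MTH-D minus MTH-WT difference was 0.0254 points for positions averaging under 2%, -0.0382 for 2 to 10%, -0.611 for 10 to 40%, -1.31 for 40 to 60%, -1.12 for 60 to 80% and -0.458 for 80 to 100%. The sign was the same in the pairs numbered 1 and 3 and opposite in the pair numbered 2 for each of the last 4 classes. By chromosome the mean level ran from 9.17% on chr6 to 12.1% on chr7. The 3-sample mean was lower in MTH-D on 19 of 19 chromosomes, as was pair 1 and pair 3, while pair 2 was lower on 0 of 19, and chromosomes of 1 sample are not independent of each other.

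No medium-block position passed an adjusted p of 0.05 between the groups by limma with Benjamini-Hochberg adjustment over 567667 rows (background 0%, smallest adjusted p = 0.117). At an unadjusted limma p under 0.05 stood 3.35% of the medium rows, 3610 lower and 3883 higher in MTH-D, near the background of 3.22%. By block means none of the 19400 blocks passed (background 0% of 69261 blocks of at least 3 positions, smallest adjusted p among medium blocks 0.388 by limma). At an unadjusted p under 0.05 stood 290 medium blocks (1.49%, background 3.8%), 147 lower (background 1.91%) and 143 higher (background 1.89%) in MTH-D. With the samples paired by number this count was 419 (2.16%, background 4.8%), with 213 lower in MTH-D (1.1%, background 2.47%), and without MTH-D 2 it was 481 (2.48%, background 4.67%), of which 363 were lower in MTH-D (1.87%, background 2.91%). In the samples numbered 1 and 3 alone it was 419 (2.16%, background 5.17%), with 248 lower in MTH-D (1.28%, background 2.94%). The shares of medium blocks lay below the background in each of these fits, and none passed the adjusted threshold. The background also holds the short blocks, with a median of 4 positions against 10 in medium blocks, and means of few positions vary more. The part of block size in these lower shares was not tested.

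Over medium blocks the median MTH-D minus MTH-WT difference was -0.0595 points, beside -0.0292 points over all blocks of at least 3 positions. Its middle 80% ran from -1.21 to 0.737 points, and MTH-D lay at least 5 points below MTH-WT in 38 blocks (0.196%, background 0.315%) and at least 5 points above it in 15 (0.0773%, background 0.169%). The median was -0.213, 0.182 and -0.153 points in pairs 1, 2 and 3. MTH-D was lower in all 3 pairs in 2863 medium blocks (14.8%, background 13.2%) and higher in all 3 in 1965 (10.1%, background 10.2%). The groups did not overlap in 459 blocks with MTH-D lower (2.37%, background 3.54%) and 461 with MTH-D higher (2.38%, background 3.35%). Among the 7131 medium blocks averaging at least 10%, 1266 were lower in all 3 pairs (17.8%, background 17.2%) and 529 higher (7.42%, background 7.79%). The shares with 1 sign in all 3 pairs lay within 2 percentage points of their backgrounds, while the shares without overlap and those differing by 5 points lay below them. The part of block size in these shares was not tested either.

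The 5 medium blocks with the largest decrease and the 5 with the largest increase, among those of at least 5 positions averaging 10% or more with 1 sign in all 3 pairs, were ranked by these differences and carry no test of their own. chr17:63364576-63364861 was the most uniform of the lower ones. Its mean was 28.2%, 27.7% and 31.0% in MTH-WT and 20.04%, 20.2% and 18.96% in MTH-D, so that the groups did not overlap. The log2 odds difference was -0.70 ± 0.15 (SE), with an unadjusted limma p of 0.00247 and an adjusted p of 0.817. Its positions make up the mean by which it was picked, so counts of them are descriptions and no separate support. Of its 7 positions 7 had the lower mean in MTH-D, and the groups did not overlap at 2. One of them, position 63364676, stood at 68.8%, 66.7% and 75% in MTH-WT and at 33.3%, 40% and 50% in MTH-D.

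chr3:122050456-122050927 showed a different pattern. Its mean was 15.1%, 18.0% and 18.7% in MTH-WT, and 6.46%, 16.3% and 2.82% in MTH-D. MTH-D 1 and 3 were far below every MTH-WT sample while MTH-D 2 lay within the MTH-WT range, so that the groups overlapped. At 10 of 14 positions both MTH-D 1 and MTH-D 3 lay below every MTH-WT sample. At 9 of 14 MTH-D 2 lay within the MTH-WT range. These positions make up the mean by which the block was ranked, so their counts are descriptions and no separate support. The other blocks of this rank were chr5:105420658-105420937 (a difference of -10.4 points), chr8:70218971-70219307 (-9.00 points) and chr17:22595333-22595721 (-7.86 points). The groups overlapped in the chr5 block and in this chr17 block, and not in the chr8 block. In the chr5 block the differences of pairs 1, 2 and 3 were -25.2, -2.62 and -3.39 points. In this chr17 block they were -9.96, -1.01 and -12.6 points.

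Among the higher ones, chr6:116111041-116111271 had 26.04%, 25.3% and 25.1% in MTH-WT against 30.3%, 36.1% and 31.4% in MTH-D, a difference of 7.10 points without overlap. chr3:70697929-70698319 had 9.05%, 10.1% and 5.06% against 11.5%, 20.3% and 12.4%. Its position 70698058 averaged 28.9% in MTH-WT and 60.01% in MTH-D. chr11:3407096-3407444 differed by 6.49 points, chr16:55664002-55664245 by 6.35 points and chr7:127464978-127465193 by 6.19 points. The groups overlapped in the chr16 and chr7 blocks and not in the chr11 block. Across the 10 blocks of both directions the adjusted limma p ranged from 0.817 to 1.

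At single positions, chosen by the same kind of ranking, the largest decrease was at position 76380771 of chr5, in a block of 10 positions. It stood at 83.3%, 78.6% and 57.1% in MTH-WT and at 35.7%, 40% and 27.3% in MTH-D (limma, Benjamini-Hochberg adjusted p = 0.625). The largest increase was at position 144142446 of chr7, in a block of 26 positions, with 8.33%, 9.09% and 16.7% in MTH-WT and 39.1%, 30% and 60% in MTH-D (limma, Benjamini-Hochberg adjusted p = 0.597). At both the groups did not overlap, which a ranking by the group difference favours, and neither passed the adjusted threshold.

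**Figure D4:**
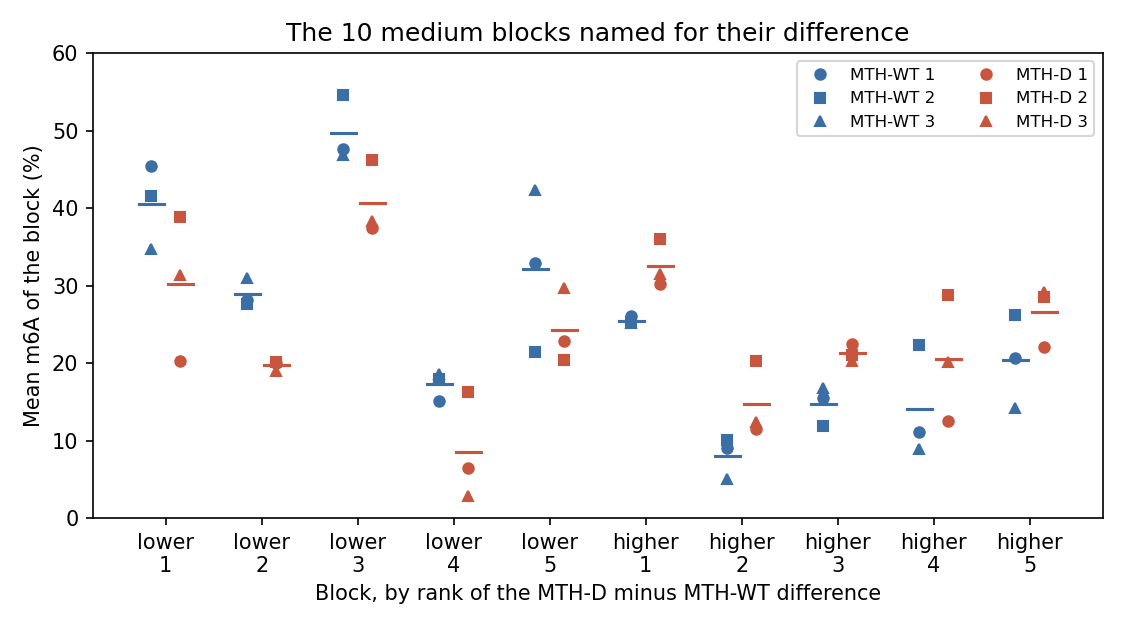
Mean m6A level (percent, y axis) in each sample, with bars for group means, of the 5 medium blocks most decreased in MTH-D (lower 1 to 5: chr5:105420658-105420937, chr17:63364576-63364861, chr8:70218971-70219307, chr3:122050456-122050927, chr17:22595333-22595721) and the 5 most increased (higher 1 to 5: chr6:116111041-116111271, chr3:70697929-70698319, chr11:3407096-3407444, chr16:55664002-55664245, chr7:127464978-127465193). In lower 2 the MTH-WT samples lie between 27.7% and 31.0% and the MTH-D samples between 18.96% and 20.2%. In lower 4 MTH-D 2 stands at 16.3%, within the MTH-WT range of 15.1% to 18.7%.

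**Figure D5:**
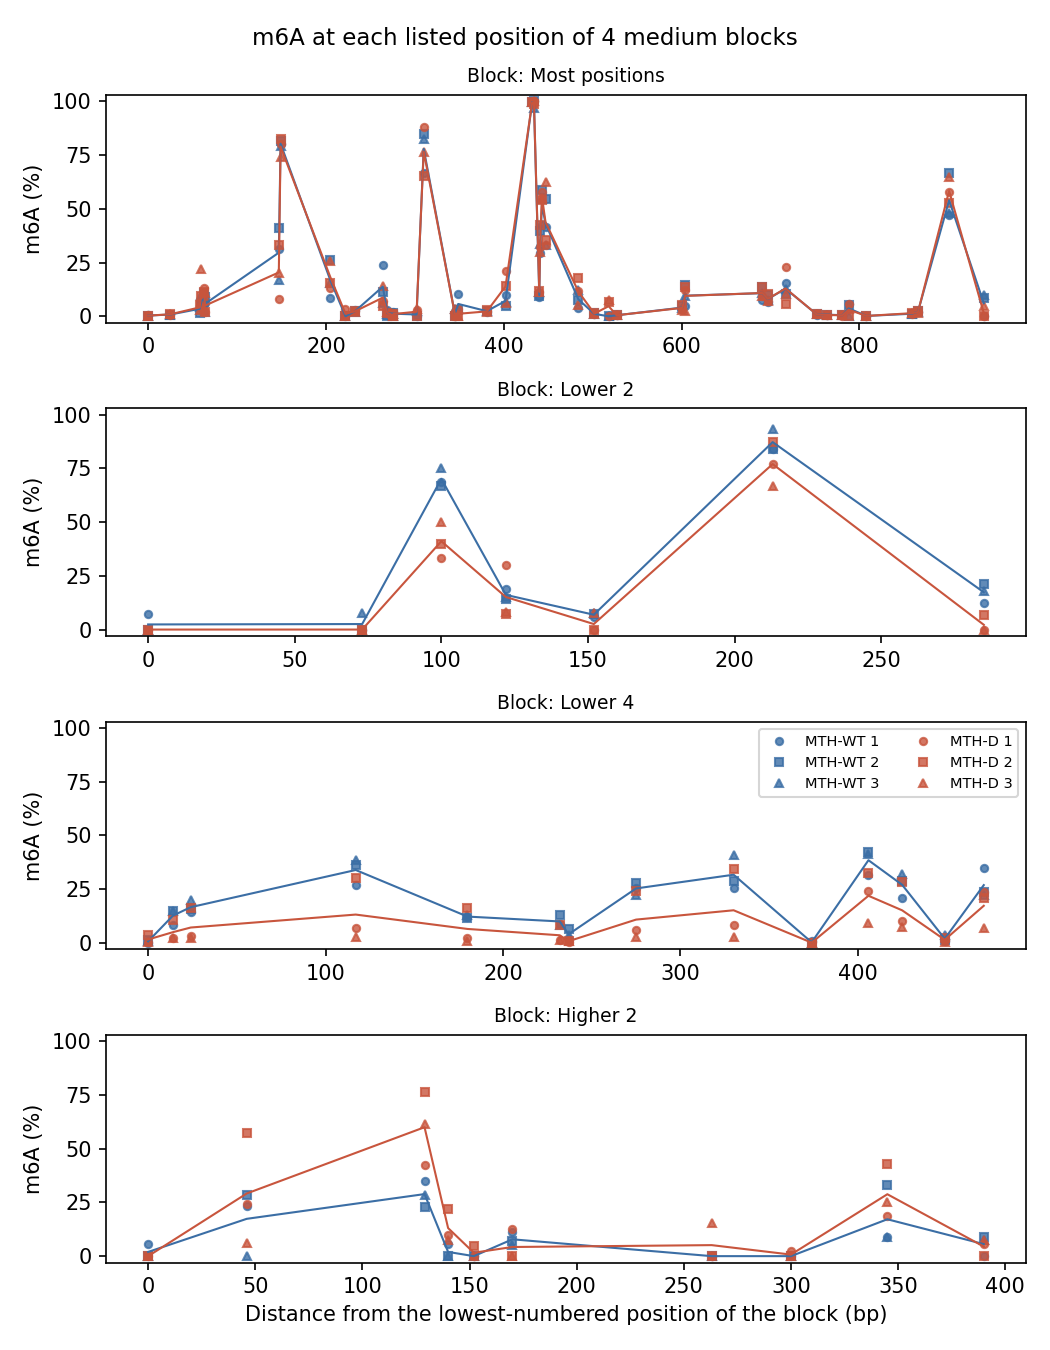
m6A level (percent, y axis) at each listed position against the distance from the block's lowest-numbered position (bp, x axis) in chr10:43458615-43459555 (most positions), chr17:63364576-63364861 (lower 2), chr3:122050456-122050927 (lower 4) and chr3:70697929-70698319 (higher 2), with points for samples and lines for group means. In the block with the most positions 2 close positions average 99.6% and 99.3% beside many near 0, and in higher 2 the largest gap between groups is at the position averaging 28.9% in MTH-WT and 60.01% in MTH-D.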

How the data were processed

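Direct RNA sequencing by nanopore (SQK-RNA004 chemistry, PromethION) was done by the authors on 1000 ng of total RNA per sample for up to 72 h. The deposited table gives, per the file headers, the chromosome, the position and, for 6 samples, the m6A fraction from 0 to 1, which was multiplied by 100 here. Minimap2 2.26, SAMtools and GRCm39 are named in the submitters' processing notes, and the modification caller was not given in the sources used here for this table. Coverage was not analysed here, so depth and its precision are unknown. Of 567667 rows, 567664 were distinct positions, and the 3 repeated ones were averaged for blocks.

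Positions matched DRACH motifs of a first stretch of chr4, where an older build still coincides, in 94.1% of 9535 rows when counted from 0 and in 0.870% when counted from 1. Printed coordinates are therefore the listed positions plus 1. That older build was used for nothing else, and the planned comparisons of motifs, exons and gene lists were not run.

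Samples were grouped by their labels. Level contrasts were tested by exact sign-flip permutation over 6 samples and groups by exact permutation of 3 against 3, two-sided. Positions and block means were fitted with limma 3.58.1 (R 4.3.3) on log2((percent + 1)/(100 - percent + 1)), adjusted over the whole table. The scripts were tested on simulated data. Same-numbered samples deviated together from their group means (correlations of 0.163, 0.230 and 0.142 over 49628 positions averaging at least 10%). Between different numbers the correlations were -0.140 to -0.00148. Deviations from a mean of 3 samples sum to 0, and the samples numbered 2 were higher in both groups, so these correlations cannot show a shared line. The numbers were taken as pairs in alternative fits, which for the level contrasts leave 3 units. Named blocks were the 10 with the highest mean, the 5 with the most positions, and the 5 most decreased and 5 most increased in MTH-D among blocks of at least 5 positions averaging 10% or more with 1 sign in all 3 pairs, and positions were ranked likewise. The blocks, classes and rules were chosen with earlier results of these data known. Alternatives covered the gap, block size, edge width, weighting, offset, a minimum level of 10%, and leaving out each sample.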

Additional observations from a re-analysis of the deposited data

Results flagged for a closer look

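In the samples numbered 2, MTH-D exceeded MTH-WT by 0.317 points of mean m6A over medium-block positions, while in the samples numbered 1 and 3 it was lower by 0.432 and 0.379 points (differences of -0.432 and -0.379). With 1 sample per group and number, the difference between pairs was not tested. The samples numbered 2 also had the highest level of their group, 11.3% and 11.6%.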

How the results depend on the processing

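The counts of 0 called positions and 0 called medium blocks held under every alternative run, with the smallest adjusted limma p from 0.0637 to 0.874 for positions and from 0.139 to 1.00 for blocks. The replicate block, pairing samples by number, gave the same -0.165 points for the difference between groups (exact sign-flip permutation p = 0.5, where 3 pairs cannot go below 0.25) and changed none of those calls. For the 4 level contrasts the replicate block, added after seeing the data, kept the values (5.61, 1.195, 1.48 and 3.07 points) but took the exact sign-flip permutation p from 0.03125 to 0.25, the smallest that 3 pairs allow, so that no call at 0.05 remained. The difference between groups ranged from -0.805 to 0.235 points when 1 sample was left out, was 0.04 points by the median over positions, and was -0.405 points in the samples numbered 1 and 3. The 4 level contrasts kept their direction in 56 of 57 alternative values, the exception being the value within 50 bp of an end given below. Each contrast was positive in 6 of 6 samples, so leaving out samples could not reverse it, and pairing keeps its value. Those alternatives among the 57 are therefore no separate support for the direction. With 5 or 4 samples the smallest possible p is 0.0625 or 0.125, so those are compared as values. Leaving out 1 sample gave 5.48 to 5.69 points for medium minus short blocks, 1.16 to 1.25 for long minus medium, 1.45 to 1.51 for the widest minus the narrowest and 3.002 to 3.12 for middle minus end. Long minus medium was 0.371 points at positions averaging at least 10% (exact permutation p = 0.25), 1.84 as a mean over blocks and 0.731 with a gap of 200 bp. The widest minus the narrowest was -0.122 points within 50 bp of an end and 3.15 points with a gap of 200 bp. The cause of these shifts was not tested. A gap of 50 bp gave no value for the contrasts that need wide blocks. Depth limits every statement on single positions, since it is unknown.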
